A study of Caenorhabditis elegans with 2 samples.

Results

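Methyl groups on lysine 27 of histone H3 (H3K27) are placed by the Polycomb repressive complex PRC2 and removed by enzymes of the JmjC family, which use iron and 2-oxoglutarate to oxidise the methyl group away. In C. elegans PRC2 consists of MES-2, the catalytic subunit and homologue of mammalian EZH2, with MES-3 and MES-6, and it is best known for keeping the X chromosomes and somatic genes silent in the germline. The removing enzymes include UTX-1, the homologue of mammalian UTX, which acts on trimethylated H3K27 and is required for embryonic development, JMJD-3.1, a relative of mammalian JMJD3 known from the conversion of a rectal cell into a neuron, and JMJD-1.2 and JMJD-1.1, which resemble mammalian PHF8. JMJD-1.2 and JMJD-3.1 are also known from the response to mitochondrial stress.

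The 4 genes for these enzymes, utx-1, jmjd-3.1, jmjd-1.2 and jmjd-1.1, were chosen by name, and they are 4 of 19973 protein-coding genes in the Ensembl annotation of the ce11 (WBcel235) genome. The question was whether regions enriched with tagged MES-2 lay at them. Chromatin immunoprecipitation with sequencing had been done on whole L4 larvae, the last larval stage, of hermaphrodites of strain OP248. This strain stably expresses a transgenic MES-2 that carries GFP-FLAG at its C terminus, so both samples contain the transgene. Chromatin was sheared by sonication and precipitated with an antibody to GFP. The 2 samples are biological replicates of 1 group, and no second genotype, stage or treatment is compared. Whole larvae mix all tissues, including the developing germline, so a region cannot be assigned to a tissue. The sources used here do not give the transgene's promoter or copy number, or the culture behind each replicate.

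The authors listed 30000 regions for each replicate and 30000 for the reads of both replicates pooled. A list thresholded on reproducibility (irreproducible discovery rate, IDR) holds 5501 regions. Every region carries the authors' signal value, and the 5501 thresholded regions are the 5501 pooled regions of highest signal. The last thresholded region has a signal of 73.54 and the first pooled region below it 73.52, so the limit falls in a continuous series. Neither the scale of the signal nor the read depth is stated, so signals were set side by side within a list, and replicates by rank, rank 1 being the strongest region. A region was counted for a gene when its summit lay inside the gene or within 2 kb of either end. The regions had been called against a control alignment, per the submitters' file lists. That control was not analysed here, so how far the signal of a region is particular to MES-2 was not tested.

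Thresholded regions lay upstream of utx-1, jmjd-3.1 and jmjd-1.2, 1 at each gene, and none lay at jmjd-1.1. The strongest was at jmjd-1.2, with a signal of 421.0 and rank 612 of the thresholded list. The region at utx-1 had a signal of 215.1 and rank 1714, and the region at jmjd-3.1 had a signal of 132.7 and rank 2915. By the same rule 31.8% of all protein-coding genes (6351 of 19973) had a thresholded region, 29.9% of those on the X chromosome and 32.1% of those on the autosomes. With 4 genes chosen by name, the count of 3 beside this background is a description. The shares were larger for long genes, at 47.4% of genes at least as long as utx-1, 45.4% for jmjd-3.1, 45.2% for jmjd-1.2 and 39.9% for jmjd-1.1.

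The DNA under the 3 thresholded summits is shown because these intergenic stretches are where the strongest signal of the family lay. Each line gives 300 bases of the RefSeq WBcel235 genome, plus strand, 5′ to 3′, with the summit in the middle. Capitals mark matches, on either strand, to one of 3 short motifs: GAGAG, which reads as CTCTC on the other strand, TTTCAG, which reads as CTGAAA there, and CGCG, which reads the same on both. The windows are chrX:8556738-8557037 for utx-1, chrX:8569229-8569528 for jmjd-3.1 and chrIV:4660340-4660639 for jmjd-1.2. No annotated gene or UTR lies in any of them.
utx-1: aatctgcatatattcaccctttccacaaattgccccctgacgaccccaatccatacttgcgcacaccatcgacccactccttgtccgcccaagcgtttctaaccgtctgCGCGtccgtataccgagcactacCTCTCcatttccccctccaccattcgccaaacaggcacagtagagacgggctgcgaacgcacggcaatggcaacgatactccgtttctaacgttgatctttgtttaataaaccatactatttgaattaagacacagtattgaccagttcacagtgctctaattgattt
jmjd-3.1: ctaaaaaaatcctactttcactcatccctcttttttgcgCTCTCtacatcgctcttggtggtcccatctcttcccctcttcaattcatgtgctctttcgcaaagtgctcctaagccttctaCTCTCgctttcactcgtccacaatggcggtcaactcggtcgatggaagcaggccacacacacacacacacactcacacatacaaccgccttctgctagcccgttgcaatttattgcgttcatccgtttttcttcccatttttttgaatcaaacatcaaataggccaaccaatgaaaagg
jmjd-1.2: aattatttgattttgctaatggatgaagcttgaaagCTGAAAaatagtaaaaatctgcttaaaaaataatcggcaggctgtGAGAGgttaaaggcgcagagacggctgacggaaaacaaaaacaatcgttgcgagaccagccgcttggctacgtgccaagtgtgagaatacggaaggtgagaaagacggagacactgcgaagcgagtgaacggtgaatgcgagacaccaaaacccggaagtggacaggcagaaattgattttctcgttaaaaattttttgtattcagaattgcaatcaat

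**Figure D1:**
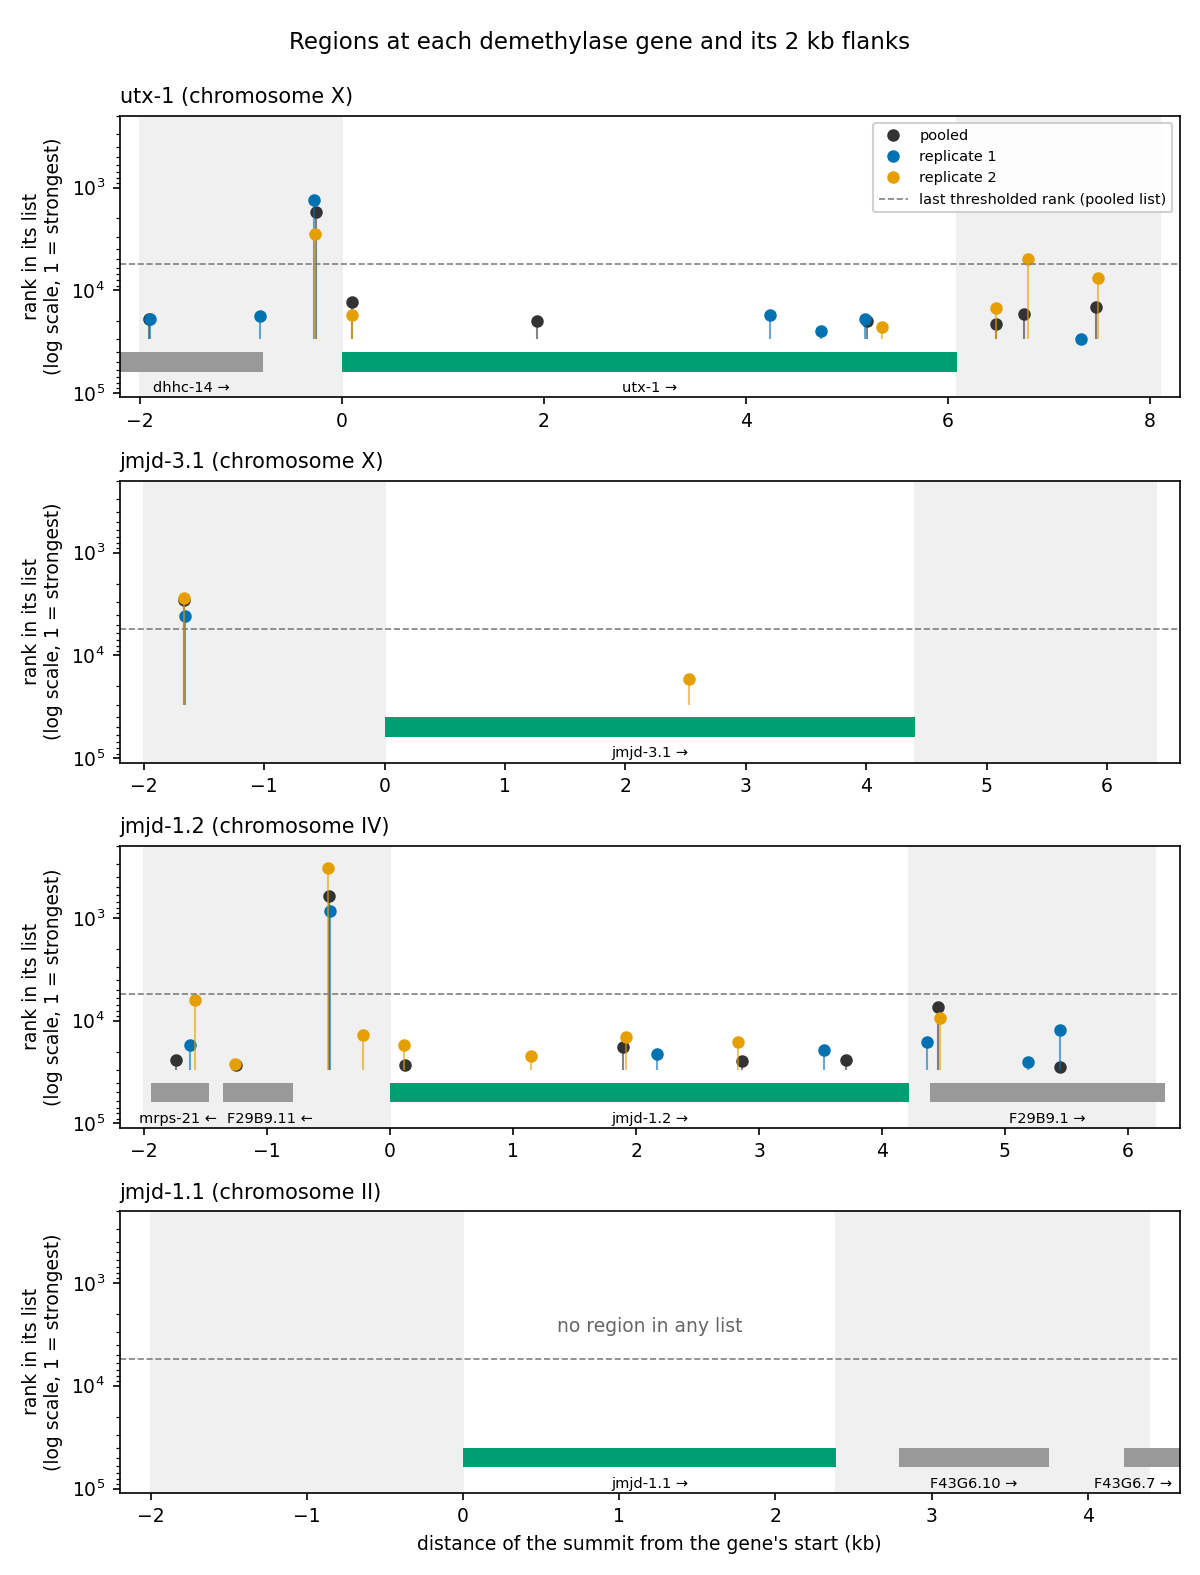
Ranks of all regions at utx-1, jmjd-3.1, jmjd-1.2 and jmjd-1.1 by the distance of the summit from the gene's start, with the gene in green, its 2 kb flanks shaded, neighbouring genes in grey and arrows for strand (rank on a log scale, 1 at the strong end). The strongest region of each of the first 3 genes is upstream and present in the pooled list and both replicates, and jmjd-1.1 has no region in any list.

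utx-1 (WBGene00017046) lies at chrX:8557146-8563238 on the plus strand, 6093 bp with 2 annotated transcripts and 17 distinct exons. Its thresholded region, chrX:8556845-8556965, is 121 bp wide, and its summit at base 8556888 is 258 bp before the gene. The summit falls in the 785 bp of intergenic DNA between utx-1 and dhhc-14, a gene for a DHHC-type palmitoyltransferase that runs in the same direction and ends before utx-1 begins. No start of another gene lay within 500 bp of it.

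In replicate 1 this region had a signal of 134.7 and rank 1314, and in replicate 2 it had a signal of 72.1 and rank 2811. The replicates placed it in the same spot but at different strengths. Their summits were 19 bp apart, against a median of 20 bp over the 5235 thresholded regions that overlapped a region in both replicates. Their ranks differed by a factor of 2.14, against a median of 1.53, and 75.4% of those 5235 regions had a smaller factor. Among genes with a thresholded region, utx-1 stood in the middle: its highest signal of 215.1 was above that of 49.9% of them, whose median was 215.7.

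The pooled list held 7 more regions at utx-1, none past the threshold. Of these, 3 lay inside the gene, all in introns, 1 lay upstream in a coding exon of dhhc-14 and 3 lay downstream in intergenic DNA. Their signals were 26.0 to 38.3 and their ranks 13043 to 21224. The strongest, at base 8557249, was 103 bp inside the gene with a signal of 38.3, and it overlapped a region in replicate 2, at rank 17286, but none in replicate 1. A region 664 bp past the end of the gene differed most between lists: it ranked 17167 in the pooled list and 4935 in replicate 2 with a signal of 43.1, and replicate 1 listed nothing there. It would thus be a second region of utx-1 if the 5501 strongest regions of replicate 2 alone were counted. A region 1369 bp past the end ranked 14649 in the pooled list, 29595 in replicate 1 and 7563 in replicate 2.

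jmjd-3.1 (WBGene00017571) lies at chrX:8571047-8575451 on the plus strand, 4405 bp with 4 transcripts and 14 distinct exons. Its thresholded region, chrX:8569277-8569480, is 204 bp wide with the summit at base 8569379. This is 1668 bp before the gene, the most distant of the 3, in intergenic DNA with no annotated start within 500 bp, and the nearest protein-coding start is that of jmjd-3.1 itself.

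The region had a signal of 47.7 and rank 4148 in replicate 1, and a signal of 73.3 and rank 2762 in replicate 2. The ranks differed by a factor of 1.5 and the summits by 9 bp, against medians of 1.53 and 20 bp over thresholded regions found in both replicates. The order of the 2 X-linked genes was not the same in both replicates. utx-1 was above jmjd-3.1 in the pooled list (1714 against 2915) and in replicate 1 (1314 against 4148), while in replicate 2 utx-1 ranked 2811 and jmjd-3.1 ranked 2762.

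Apart from this region, jmjd-3.1 had no pooled region under the 2 kb rule. Just outside it, weaker pooled summits lay 2257, 2513 and 2991 bp before the gene, with signals of 44.3, 32.8 and 19.4. The nearest of these ranked 10600 in the pooled list, and both replicates listed a region there, at ranks 17981 and 8911. By the 2 kb rule, 2.95% of all protein-coding genes (589 of 19973) had exactly 1 pooled region that was itself thresholded. Among genes with a thresholded region 89.1% also had a weaker pooled region, with a median of 3 weaker regions each. Under the 2 kb rule the single further region of any list was in replicate 2, in a coding exon 2526 bp into jmjd-3.1. It had a signal of 16.3 and rank 16927.

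utx-1 and jmjd-3.1 follow each other on the X chromosome, with 7808 bp and no annotated gene between the end of the first and the start of the second. This interval held 2 thresholded summits, 9 pooled summits, 5 of replicate 1 and 8 of replicate 2. Besides the region upstream of jmjd-3.1, the thresholded one was chrX:8566125-8566328, with its summit 2989 bp past the end of utx-1 and 4820 bp before jmjd-3.1, outside both 2 kb flanks. It had a signal of 93.1 and rank 4244 in the thresholded list, rank 3930 in replicate 1 and rank 9858 in replicate 2. Its strength was close to that of the jmjd-3.1 region in replicate 1, where the signals were 49.9 and 47.7, but well below it in replicate 2, where they were 24.5 and 73.3. A flank of 5 kb would assign it to both genes.

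jmjd-1.2 (WBGene00017920) lies at chrIV:4660991-4665212 on the plus strand, 4222 bp with 3 transcripts and 15 distinct exons. Its thresholded region, chrIV:4660383-4660623, is 241 bp wide with the summit at base 4660490, 501 bp before the gene. The summit falls in the 789 bp between jmjd-1.2 and F29B9.11, which is transcribed away from it on the minus strand. It is 289 bp from the start of F29B9.11, the only annotated start within 500 bp, so the region belongs to a divergent pair and is nearer to the other gene. Across all protein-coding genes with a thresholded region the nearest start was the gene's own in 50.7%.

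The jmjd-1.2 region had a signal of 177.2 and rank 862 in replicate 1, and a signal of 284.3 and rank 329 in replicate 2. It was the strongest region of the family in each of them. The summits were 492 bp before the gene in replicate 1 and 505 bp in replicate 2, 13 bp apart. The ranks differed by a factor of 2.62, and 85.0% of thresholded regions found in both replicates had a smaller one. Replicate 2 placed it higher, whereas replicate 1 placed utx-1 higher, so the rank differences of these genes did not run one way. The pooled signal of 421.0 was above the highest signal of 79.1% of genes with a thresholded region.

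A further 8 pooled regions lay at jmjd-1.2, the most of the 4 genes, with signals of 19.4 to 58.3 and ranks 7392 to 28104. Inside the gene there were 4, all in coding exons. Each of those 4 overlapped a region in 1 replicate and none in the other. Over all pooled regions below the threshold, 33.0% overlapped regions in both replicates and 14.7% in neither, so a region in 1 replicate only was common. The strongest of the 8 was 232 bp past the end of jmjd-1.2, with a signal of 58.3 and rank 7392. It lay in a coding exon of the next gene, F29B9.1, 65 bp past that gene's start, and overlapped regions at rank 16156 in replicate 1 and rank 9366 in replicate 2. The second downstream region also fell in F29B9.1, and the 2 weaker upstream regions fell in coding exons of mrps-21, a gene for a mitochondrial ribosomal protein, and of F29B9.11. Thus 4 of the 8 weaker regions assigned to jmjd-1.2 by distance lay within other genes.

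jmjd-1.1 (WBGene00005013) lies at chrII:11806556-11808945 on the plus strand, 2390 bp with 1 transcript and 7 exons, and is the shortest of the 4. It had 0 regions in the thresholded, pooled, replicate 1 and replicate 2 lists. The pooled and replicate lists each stop at 30000 regions, so weaker signal would not be listed. The nearest thresholded summit was 5228 bp past its end, with a signal of 109.7 and rank 3538. The nearest pooled summit was 4315 bp past the end at rank 28756, and those of replicate 1 and replicate 2 were 3993 bp and 4261 bp past it, at ranks 20048 and 9720. Each of these 4 summits was nearest to the start of F43G6.8. An empty gene was common: 35.6% of protein-coding genes (7107 of 19973) had no summit in the pooled and replicate lists, 24.8% of those at least as long as jmjd-1.1 and 43.3% of those at most as long.

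In all, 18 pooled regions lay at the 4 genes: 8 at utx-1, 9 at jmjd-1.2, 1 at jmjd-3.1 and 0 at jmjd-1.1. Replicate 1 listed 15 and replicate 2 listed 17. The counts of utx-1 and jmjd-1.2 exceeded those of 91.9% and 94.5% of protein-coding genes, for which the median was 1, and the median was 5 among genes with a thresholded region. Longer genes held more regions: the median was 4 among genes at least as long as utx-1 and 3 among those at least as long as jmjd-1.2. All 3 thresholded regions overlapped a region in both replicates, as did 95.2% of thresholded regions over the genome. Of the 15 below the threshold, 5 overlapped regions in both replicates, 9 in 1 and 1 in neither, against 33.0% in both and 14.7% in neither for all 24499 pooled regions below the threshold. Some of the replicates' own regions had no pooled region to overlap. In replicate 1 these were 3 of 7 at utx-1, 2 of 7 at jmjd-1.2 and 0 of 1 at jmjd-3.1. In replicate 2 they were 0 of 6 at utx-1, 2 of 9 at jmjd-1.2 and 1 of 2 at jmjd-3.1. The share over all replicate regions was not computed, so nothing is read from these counts.

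**Figure D2:**
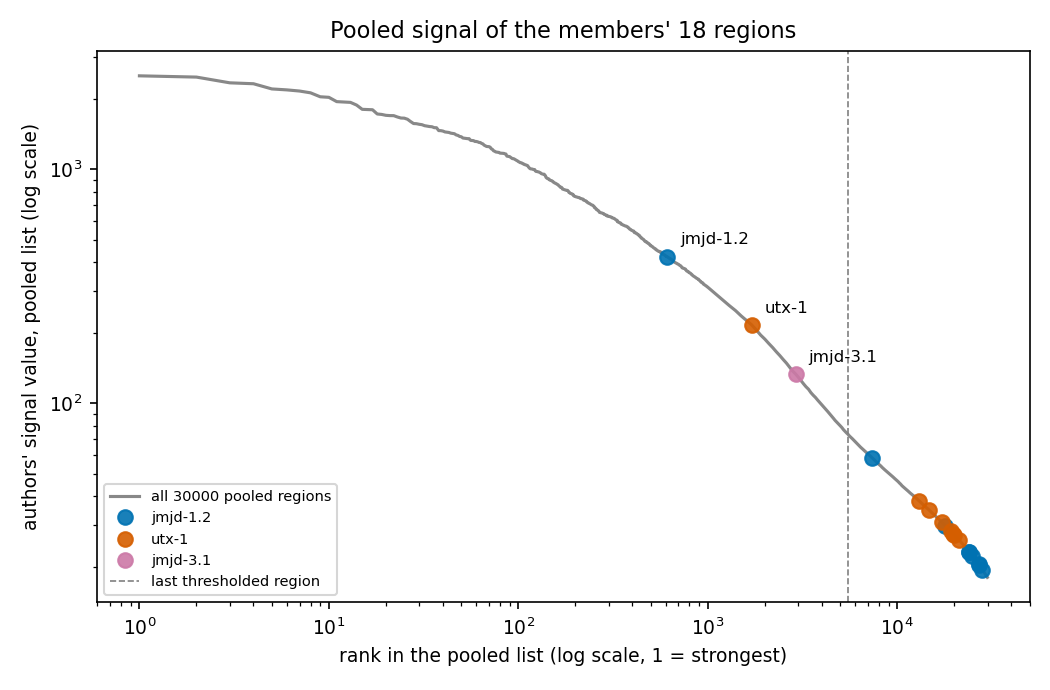
The authors' pooled signal (log scale) against pooled rank (log scale) for all 30000 regions, with the 18 regions of the family as points and the last thresholded rank as a dashed line. 1 region each of jmjd-1.2 (421.0), utx-1 (215.1) and jmjd-3.1 (132.7) lies above the threshold, and the other 15 have signals of 19.4 to 58.3.

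**Figure D3:**
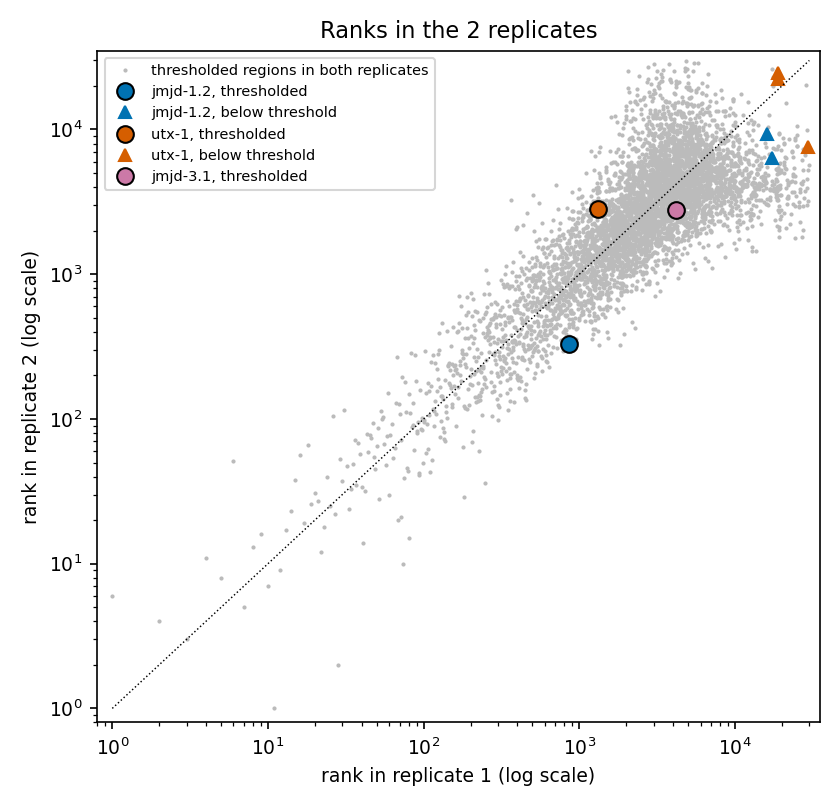
Rank in replicate 2 against rank in replicate 1 (log scales) for the 5235 thresholded regions found in both replicates (grey) and the regions of utx-1, jmjd-1.2 and jmjd-3.1 found in both, with equal ranks on the dotted line. jmjd-1.2 (862 and 329 in replicates 1 and 2) and utx-1 (1314 and 2811) lie on opposite sides of the line.

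The position upstream that the 3 thresholded regions share was also the commonest in general. The highest thresholded summit lay upstream of 59.5% of genes that had one, inside 14.9% and downstream of 25.6%. Having a single thresholded region was likewise the commoner case, at 65.0% of such genes.

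The sequences of the 3 windows differed in composition. GAGAG occurred once in the utx-1 and jmjd-1.2 windows and at 2 places in the jmjd-3.1 window. It was present in 62.0% of windows of the same length around all 5501 thresholded summits and in 39.3% of windows around 29773 protein-coding starts. CGCG occurred in the utx-1 window only, at 1 place, and was present in 53.3% of summit windows and 27.1% of start windows. TTTCAG occurred in the jmjd-1.2 window only, at 1 place, against 33.2% of summit windows and 54.3% of start windows. The 2 sets of windows also differed in median GC content, 40.3% at summits and 36.3% at starts, and the motif shares were not adjusted for it. A match is a description of the letters and does not show a site of binding.

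GC content was 48.3% for utx-1, 46.0% for jmjd-3.1 and 42.0% for jmjd-1.2, against a median of 40.3% over all thresholded summit windows. The plus strand was rich in pyrimidines at jmjd-3.1 (62.7%) and utx-1 (58.7%) and in purines at jmjd-1.2 (62.3%). Of all summit windows, 12.0%, 29.0% and 13.0% were at least as uneven as those of jmjd-3.1, utx-1 and jmjd-1.2. The jmjd-3.1 window also holds 18 bases of whole CA repeats in a row between the summit and the gene. A run of CA repeats at least as long, on either strand, was present in 1.38% of summit windows. These measures of composition were chosen after the sequences had been seen.

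Other genes of H3K27 methylation and histone demethylation were examined for comparison, from a list of 20. A thresholded region was present at 16 of them, against the background of 31.8% of protein-coding genes. That background is not matched for gene length. The share was 47.4% among genes at least as long as utx-1 and 29.7% among those at most as long. The list holds genes of both kinds, so neither share is matched to it. The median of their highest signals was 255.3, and the range was 78.0 to 1416. All 16 regions were found in both replicates, and for 11 of the 16 the nearest start was the gene's own. The list was put together with earlier results of these data known, so the share was not tested.

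Among the other 8 JmjC genes 6 had a thresholded region. The strongest were at jmjc-1, with a signal of 667.5 (rank 262), and jhdm-1, a KDM2-type demethylase gene, with 561.2 (rank 382). jmjd-3.3 had 282.5, rbr-2, which encodes a demethylase of H3K4, had 194.5, jmjd-2, which encodes a demethylase of H3K9 and H3K36, had 172.2, and psr-1, the relative of mammalian JMJD6, had 119.7. The 421.0 of jmjd-1.2 therefore lay between jhdm-1 and jmjd-3.3. jmjd-3.2 and jmjd-5 had no thresholded or pooled region. jmjd-3.3, a relative of jmjd-3.1, had like jmjd-3.1 a single pooled region, which was thresholded, but it lay downstream of the gene.

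UTX-1 works in a complex with SET-16, an MLL-type H3K4 methyltransferase, and the list held 6 genes for SET-16 and its partners. ASH-2, RBBP-5, WDR-5.1 and DPY-30 are core subunits of such complexes, and PIS-1 is a further partner. All 6 had a thresholded region. ash-2 had a signal of 1001 (rank 118), rbbp-5 952.5 (rank 134) and set-16 736.1 (rank 222), while dpy-30 had 261.3, pis-1 238.5 and wdr-5.1 190.9. The utx-1 value of 215.1 lay between those of pis-1 and wdr-5.1. For set-16, rbbp-5, pis-1 and wdr-5.1 the nearest start belonged to a neighbour, namely drr-2, tpp-2, T13F2.2 and C14B1.3, as it did for jmjd-1.2.

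The genes of PRC2 itself differed widely. mes-2, the tagged gene, had 5 thresholded regions and a highest signal of 1416 (rank 46), the highest of the list. The 40 kb around the middle of mes-2 held 17 thresholded summits, more than any of the 2503 windows of 40 kb along the genome, where the median was 2 and the highest 16. The part of the tagged construct in this was not tested. The mes-2 window was centred on the gene, so 17 against 16 does not show that no other 40 kb stretch holds as many. The same span held 6 summits around utx-1, 3 around jmjd-3.1, 3 around jmjd-1.2 and 1 around jmjd-1.1. The spans of utx-1 and jmjd-3.1 overlap, and the 3 summits of jmjd-3.1 are also among the 6 of utx-1. mes-3 had a signal of 78.0 (rank 5145), near the threshold, and mes-6 had no region. Of the genes for amine oxidase demethylases, the LSD1-type enzymes that act on H3K4, lsd-1 had 249.3, with the start of nfya-1 nearest, amx-1 had 97.4 and spr-5 had no region.

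**Figure D4:**
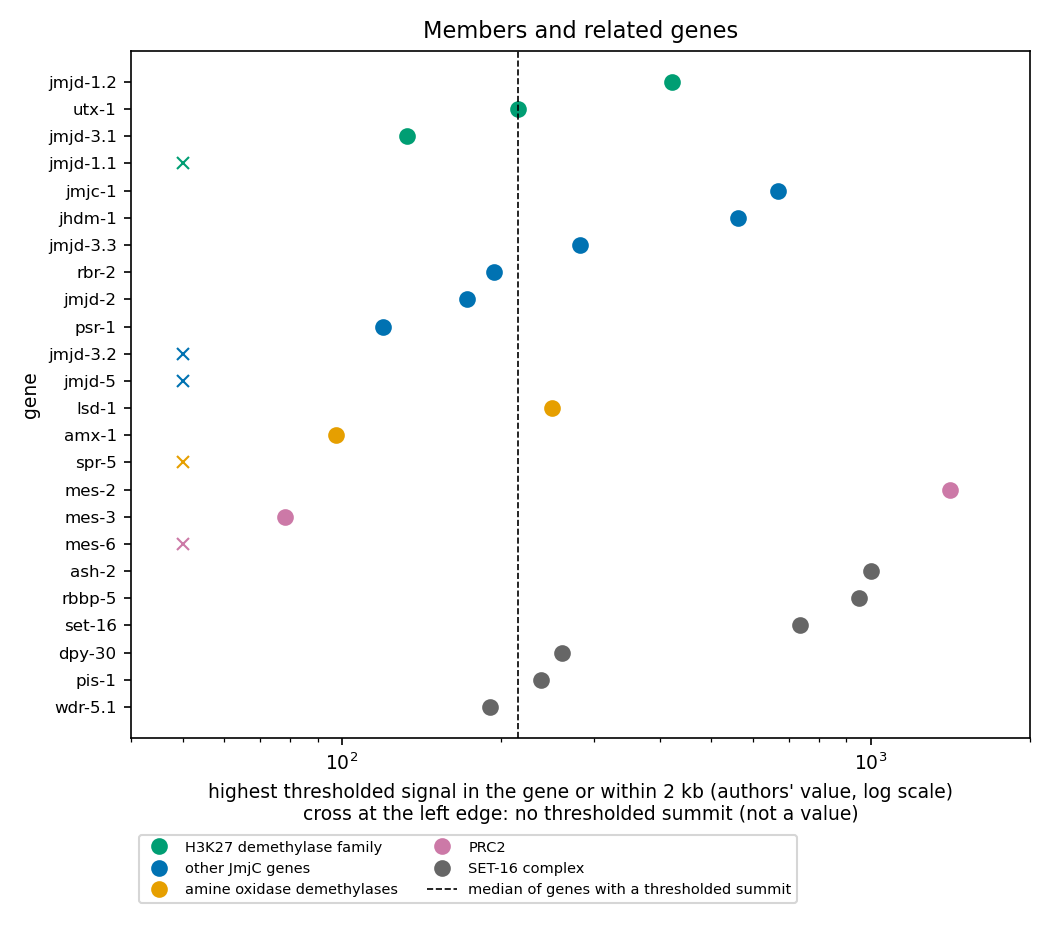
Highest thresholded signal (log scale) of the H3K27 demethylase genes and of 20 related genes, coloured by role, with crosses for genes that have no thresholded region and a dashed line at the median of genes that have one (215.7). jmjd-1.2 (421.0) is above the line, utx-1 (215.1) is next to it and jmjd-3.1 (132.7) is below it, and all 6 genes of the SET-16 complex have a region.

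Genes elsewhere whose 3 ranks (pooled, replicate 1 and replicate 2) were most like those of each demethylase gene were found by Euclidean distance on log10 ranks. For utx-1 these were ptpn-22 (1695, 1277 and 2760) and djr-1.1 (1704, 1318 and 2706), among 5866 candidates. For jmjd-3.1 they were pen-2 (3064, 4186 and 2630) and fbxa-72 (3062, 4030 and 2916), among 5867. For jmjd-1.2 they were inx-11 and mrps-11, which share 1 region with ranks 576, 956 and 354, among 5865. The distances were 0.0155 and 0.0168 for utx-1, 0.0306 and 0.0342 for jmjd-3.1, and 0.0610 for jmjd-1.2. The likeness is of rank alone.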

How the data were processed

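The deposited files used were 4 peak lists in narrowPeak layout on ce11: replicate 1, replicate 2, pooled and IDR-thresholded. Per the submitters' file lists they were called against a control alignment, the pooled list from both replicates' alignments. The software for alignment and peak calling, with the IDR limit, is not given in the sources used here. Column 7 holds the authors' signal per region, of unstated scale, and column 9 the deposited −log10 q-value. In the thresholded list 4075 regions share the highest −log10 q-value of 3.91, so regions were ranked by signal. Without read counts in the lists, depth is unknown, and counting intervals cannot be given. The 4 ce10 lists were not used.

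Summits (start plus offset, 1-based) were assigned to every gene that contained them or lay within 2 kb, using Ensembl release 115 annotation of WBcel235. No region passed a chromosome end. Replicate regions were matched to pooled ones by overlap of at least 1 bp. No significance test was made, since there is 1 group of 2 samples. Shares over all protein-coding genes give the background. The tables were made with Python 3.11.15, numpy 2.4.6 and pandas 2.3.3, and the assignment was tested on simulated data. The alternatives tried were other distances, the nearest start only, stricter and relaxed lists, each replicate alone and ranking by −log10 q-value.

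The genes named were the 4 demethylase genes, genes starting within 500 bp of or containing their thresholded summits, the related genes, and for each demethylase gene 2 genes at least 5 kb away with the most similar ranks. Neighbours of weaker regions and of related genes were named after their values were seen. The genes and lists were chosen with earlier results of these data known.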

Additional observations from a re-analysis of the deposited data

How the results depend on the processing

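jmjd-1.1 had 0 regions in every alternative count. With a 5 kb flank its nearest thresholded summit, at 5228 bp, was just outside. No count set a 5 kb flank on the whole pooled list, which had a summit 4315 bp past the gene at rank 28756. With summits required within 500 bp of a start, 1 of the 4 genes kept a region (utx-1, 1 region), jmjd-1.2 and jmjd-3.1 had 0, related genes with a region numbered 9 of 20 and the background was 16.6%. jmjd-1.2 missed that limit by 1 bp in the pooled list, with its summit at 501 bp, and met it in replicate 1 at 492 bp. Counting each summit for its nearest start alone left jmjd-1.2 with 0 and a background of 19.0%. A 1 kb flank left jmjd-3.1 with 0, so no rank there, and a 5 kb flank gave utx-1 and jmjd-3.1 2 each, sharing the summit at base 8566227. The stronger 2750 thresholded regions left jmjd-3.1 with 0. The 17622 pooled regions with a −log10 q-value of at least 2 gave 7 regions, 4 at utx-1 and 2 at jmjd-1.2. With each replicate left out in turn (the 5501 strongest regions of the other), utx-1 had 1 to 2 regions and its rank was 1314 to 2811, the rank of jmjd-3.1 was 2762 to 4148 and that of jmjd-1.2 was 329 to 862, while 3 of the 4 genes had a region in either case. Ranked by −log10 q-value, jmjd-1.2, utx-1 and jmjd-3.1 were tied at 2038, so this ranking gives them no order. The number of the 4 genes with a region was 2 with the 1 kb flank, with the nearest start alone and with the stronger regions. The background share of protein-coding genes was then 26.1%, 19.0% and 22.1%. It was 44.6% with the 5 kb flank and 47.1% with the relaxed list, where 3 of the 4 genes had a region. With replicate 1 alone it was 32.0%, and with replicate 2 alone 33.1%. Of 96 values, 77 moved by at most 1.5 times (counts and shares) or by less than 1 SD of the replicates (ranks). These include falls from 3 genes to 2, and values that could not move, such as the 0 of jmjd-1.1 in the stronger regions. For ranks the SD came from the 2 replicate ranks, so each replicate alone was judged by a spread it helped to set. The jmjd-1.2 ranks of 862 and 329 were both counted as unmoved in this way. Without thresholded regions within 20 kb of the middle of mes-2, an alternative chosen after seeing the data, related genes with a region numbered 15. No paired analysis was possible because there is 1 group. Unknown depth limits every absence, the lists stop at 30000 regions, and 2 replicates give the only measure of error.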
